A study of Mus musculus with 4 samples.

Results

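F-box proteins are the substrate-choosing subunits of SCF ubiquitin ligases, in which the scaffold Cul1 holds the RING protein Rbx1 at one end and the adaptor Skp1 with an F-box protein at the other. Each F-box protein brings its own targets to the ligase, where they are tagged with ubiquitin and, in most cases, destroyed by the proteasome. The letter after "Fbx" names the part that grips the target: WD40 repeats in the Fbxw proteins, leucine-rich repeats in the Fbxl proteins and other or unknown domains in the Fbxo proteins. In oocytes, SCF ligases act on cell cycle regulators and on stored-mRNA regulators. Rodents carry a set of tandem Fbxw genes that is known for its transcripts in oocytes.

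The F-box genes were taken by symbol, as every gene whose symbol begins with Fbxw, Fbxl or Fbxo and a number, leaving out Fbxo5 and Fbxo43, which encode inhibitors of the anaphase-promoting complex. This gave 74 of the 17945 genes in the deposited table: 24 Fbxw, 17 Fbxl and 33 Fbxo genes, represented by 221 transcript models. The 16 genes numbered Fbxw13 and higher were treated as a subgroup. Messenger RNA had been captured with oligo(dT) from germinal vesicle oocytes, arrested in meiotic prophase, of unprimed female mice at postnatal day 20. No strain, genotype or number of mice is stated in the labels. All groups were kept in medium with milrinone, a phosphodiesterase inhibitor that holds the arrest. The live oocytes were assigned from bright-field images by a deep learning pipeline to the NSN class, whose chromatin does not surround the nucleolus, or to the SN class, whose condensed chromatin does. Each class was represented by 2 libraries and 15 oocytes, so the class is a prediction from an image and each library averages several oocytes. Nothing in the labels says that replicates came from separate animals, so p-values here speak to variation among these 4 libraries alone, and that may be technical.

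The libraries held 32307398 and 32541920 estimated counts (NSN) and 37023401 and 36922573 (SN), and between 16046 and 16322 genes had at least 1 count. All 11 oocyte markers examined were present, with a summed level of 24700 to 27365 CPM in NSN and 27276 to 33187 CPM in SN (reads scaled to library size after TMM normalization, which sets libraries on a common scale by the bulk of their genes). The 11 granulosa and cumulus markers summed to 81 to 92.7 CPM in NSN and 85.6 to 87.4 CPM in SN, most of it from Cyp19a1 (41.2 to 46.6 CPM over the libraries) and Nr5a2 (22.5 to 25 CPM). Inha was at 3.71 to 11.4 CPM and Fshr at 2.89 to 5.81 CPM, whereas Amh was at 0 in SN replicate 1 and Foxl2 at 0 in all but NSN replicate 1. The 7 theca and stroma markers summed to at most 8.77 CPM in NSN and 7.11 CPM in SN. The 7 blood, immune and endothelial markers had sums of 17 to 18.1 CPM (NSN) and 19.4 to 21.6 CPM (SN). Most of this came from Pecam1, which lay between 13.6 and 16.3 CPM and overlapped between the classes. Hba-a1 and Lyz2 together had 0 and 1 counts in the NSN libraries. The SN libraries held 18.2 and 26 counts of Hba-a1 and 27 and 35 of Lyz2. Cd68 and Hbb-bs also stood higher in both SN libraries, whereas Kdr stood lower there (log2 -0.25, SE 0.42) and Ptprc overlapped. The part of these cells in the F-box results was not tested.

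Most F-box mRNA in these oocytes came from 1 genomic cluster. Of the 16 genes numbered Fbxw13 and higher, 15 lay side by side on chromosome 9 between positions 109139454 and 109790660 (RefSeq annotation of GRCm38), a stretch of 651 kb that held no other protein-coding gene. The exception was Fbxw17, on chromosome 13 at 50417835 to 50433781. The flanking gene Plxnb1, which encodes a semaphorin receptor, was at 0.8 to 1.09 TPM (a transcript level scaled to the same total in every library and corrected for transcript length, so that genes can be compared), whereas the median gene of the cluster averaged 1783 TPM. Summed over its 15 genes, the cluster took 3.19% and 3.01% of all TPM in NSN replicates 1 and 2 and 3.3% and 3.28% in SN replicates 1 and 2. It held between 95.9% and 96.9% of the TPM of all F-box genes in each library. By estimated counts it took 3.11% (Wilson 95% interval 3.107% to 3.119%) and 2.8% (2.799% to 2.81%) of the NSN libraries and 3.24% (3.237% to 3.249%) and 3.15% (3.147% to 3.158%) of the SN libraries, intervals that cover counting error only. Libraries of 1 class thus differed by far more than counting error, and NSN replicate 2 was the lowest.

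Upstream windows were found for 12 of the 15 clustered genes, and 11 of these were alike; 4 are shown, among them Fbxw23, which differs, to compare highly and weakly expressed members of the cluster. They are RefSeq sequences (GRCm38.p6), 110 bases ending at the base before the annotated transcription start, written 5′ to 3′ on the strand of the gene. Capitals mark CAGCTG, a form of the E-box bound by basic helix-loop-helix factors, and TTTAAA, an A/T-rich hexamer. Fbxw28 and Fbxw24 had the highest mean levels of the cluster, Fbxw20 lacks the TTTAAA, and Fbxw23 had the lowest mean level and lacks both hexamers here.
Fbxw28 (chr9:109339660-109339769, minus strand): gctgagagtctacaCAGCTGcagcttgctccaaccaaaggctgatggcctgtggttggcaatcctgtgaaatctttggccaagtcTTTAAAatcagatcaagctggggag
Fbxw24 (chr9:109626060-109626169, minus strand): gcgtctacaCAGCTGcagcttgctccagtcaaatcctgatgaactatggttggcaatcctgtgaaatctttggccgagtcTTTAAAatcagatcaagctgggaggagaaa
Fbxw20 (chr9:109234755-109234864, minus strand): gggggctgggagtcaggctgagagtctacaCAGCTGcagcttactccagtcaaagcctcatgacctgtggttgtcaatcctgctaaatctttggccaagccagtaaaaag
Fbxw23 (chr9:109543190-109543299, minus strand): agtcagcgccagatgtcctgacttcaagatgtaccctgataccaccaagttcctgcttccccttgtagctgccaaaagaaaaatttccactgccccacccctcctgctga

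The 12 clustered windows cover all but Fbxw13, Fbxw22 and Fbxw27, and windows were found for 56 of the 74 F-box genes. For Fbxw14, Fbxw19 and Fbxw25 the window begins at a start inside the annotated extent of the gene, so part or all of it lies within the gene. Over the 250 bases upstream, 11 of these clustered windows were between 81.7% and 97.2% identical in pairs, with Fbxw28 and Fbxw14 the closest pair, whereas the window of Fbxw23 was 41.3% to 44.2% identical to the others. TTTAAA lay between 40 and 11 bases before the annotated start in 8 of the 12 clustered windows, in 0 of the 44 windows of the other F-box genes and in 1.6% of all 27025 gene windows. CAGCTG lay between 110 and 61 bases before the start in 10 of 12 clustered windows, 3 of 44 other F-box windows and 2.7% of all windows. Over all 250 bases, TTTAAA occurred in 10 of the 12 clustered windows, 7 of the 44 other F-box windows and 12.1% of all windows. CAGCTG occurred there in 11 of 12, 9 of 44 and 12.8%, in the same order. TATAAA and TAATTG occurred upstream (250 bases) in 13% and 7.3% of all windows, in 0 of the 12 clustered ones, and in 0 and 2 of the 44 other F-box windows. CAGCTG and TTTAAA read the same on both strands, TATAAA and TAATTG were searched on both, and a match of TTTAAA cannot share bases with one of TATAAA. The clustered windows are copies of one another and so are not independent, and a match of letters is not a binding site. How the hexamers and intervals were chosen is not recorded, and they may have been fitted to these windows, so the counts are description only. Fbxw25 had both hexamers in its window, as Fbxw24 did, and was at 151 TPM on average, against 5072 TPM for Fbxw24.

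Members of the cluster differed in level by more than the libraries did. The highest was Fbxw28, at 5349 and 5111 TPM in NSN replicates 1 and 2 and 5678 and 5652 TPM in SN replicates 1 and 2, the 16th gene of all by mean TPM. Fbxw24, whose product has been tied in mice to turnover of the synaptonemal protein SYCP3, was at 5161, 4920, 5046 and 5162 TPM in the same order and ranked 17. Fbxw14 was at 4846, 4427, 5288 and 5044 TPM and ranked 18, so that 3 of the 20 most abundant mRNAs of these oocytes came from F-box genes. The ranges of these 3 genes over the libraries overlapped one another, so their order is not resolved beyond that spread. The ranks of Fbxw28 and Fbxw14, and so the count of 3, also rest on how the counting model divided reads that fit both genes. Next came Fbxw18 with a mean of 2824 TPM, Fbxw19 with 2570, Fbxw15 with 2483 and Fbxw16 with 2454 TPM, and the last 3 overlapped between libraries. Fbxw21 averaged 1783 TPM, Fbxw20 1038, Fbxw27 988, Fbxw26 844, Fbxw22 799 and Fbxw13 446 TPM. The weakest were Fbxw25, at 138, 146, 157 and 164 TPM, and Fbxw23, at 153, 136, 143 and 152 TPM. Fbxw23 is protein-coding in RefSeq and a transcribed pseudogene in GENCODE M21. Fbxw17, outside the cluster, was at 13.9 TPM on average. In all, 8 F-box genes stood among the 100 most abundant genes, all of them in the cluster.

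**Figure D1:**
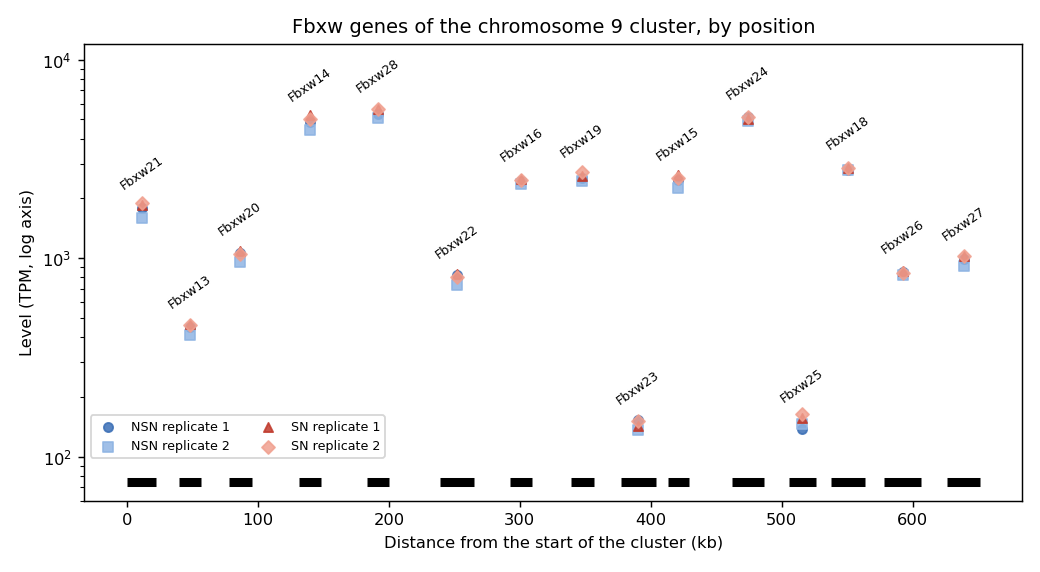
Level in TPM (log axis) of the 15 Fbxw genes of the chromosome 9 cluster in the 4 libraries, against the distance of each gene from the start of the cluster in kb; black bars mark the extent of each gene. Fbxw14, Fbxw28 and Fbxw24 average 4901, 5448 and 5072 TPM, Fbxw23 and Fbxw25 146 and 151 TPM, and the libraries of a gene lie close together.

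Some neighbours in the cluster had like levels, such as Fbxw16 with Fbxw19, and others did not. The neighbours Fbxw14 and Fbxw28 also had like levels, but the counting model divided shared reads between these close copies, so their separate levels are uncertain. Fbxw23 lay between Fbxw19 and Fbxw15, which averaged 2570 and 2483 TPM, and Fbxw25 lay between Fbxw24 and Fbxw18. The division of the cluster's output among its genes was nearly the same in every library: Fbxw28 took 16.8%, 17%, 17.2% and 17.2% of the cluster's TPM in NSN replicates 1 and 2 and SN replicates 1 and 2, and no gene's share moved by more than 1.28 percentage points over the libraries. That largest movement was of Fbxw14, from 14.7% in NSN replicate 2 to 16% in SN replicate 1. The 3 highest genes together held 48.1% to 48.5%, and the 13 highest 99% to 99.1%.

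**Figure D2:**
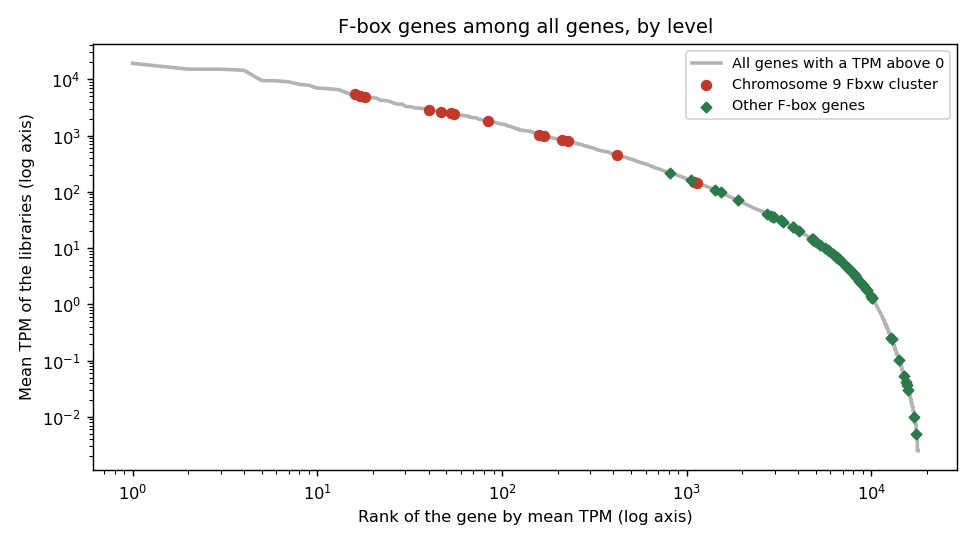
Mean TPM over the 4 libraries (log axis) against the rank of the gene among all genes (log axis), with all genes as a grey line, the 15 clustered Fbxw genes as red circles and the other 59 F-box genes as green diamonds. The cluster spans ranks 16 to 1139, and the first F-box gene outside it, Fbxw4, has rank 811.

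The values of single clustered genes carry an uncertainty that no test here contains, because their transcripts are alike. Representative transcripts (GENCODE M21) were 79.9% to 99.1% identical in pairs, with a median of 84.2% over 105 pairs. Fbxw14 and Fbxw28 were the closest at 99.1%, and 67.1% of all 50-base windows of the Fbxw28 transcript also occurred in that of Fbxw14. Reads from these 2 genes were therefore divided between them by the counting model. For the other 13 genes the share of 50-base windows found in another transcript of the cluster was 5.8% (Fbxw24) to 15.4% (Fbxw16). Most 50-base windows of these genes thus occurred in only 1 of the representative transcripts. Only exact matches were counted, with 1 transcript per gene, so sharing among all counted models may be larger. How far the order of the genes depends on shared reads was not tested. The read length is not given in the sources used here.

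**Figure D3:**
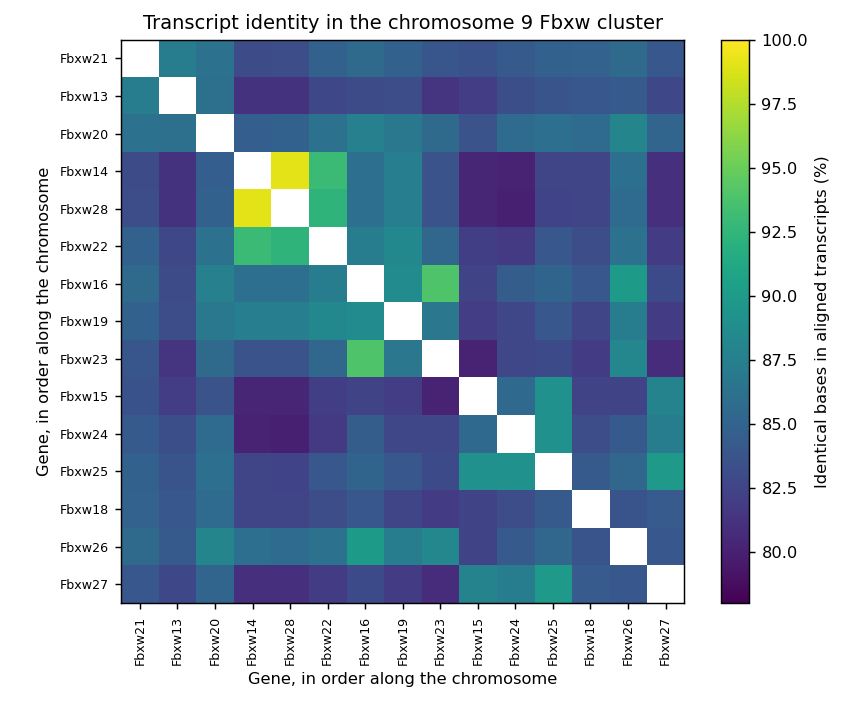
Share of identical bases (%) between aligned transcripts of each pair of clustered Fbxw genes, ordered along the chromosome. The brightest pair is Fbxw14 and Fbxw28 at 99.1%, and Fbxw16 with Fbxw23 follows at 93.9%.

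The comparison of SN with NSN asked whether the predicted chromatin classes differ in these transcripts. No F-box gene was called: the quasi-likelihood test of edgeR, adjusted over all 13426 genes tested, called 0 of the 66 F-box genes that passed its filter on low counts, as it called 0% of all genes. In pooled oocytes, less RNA per cell and fewer contributing cells cannot be told apart. At an unadjusted p under 0.05 there were 2 F-box genes higher in SN (4.01% of all genes) and 4 lower in SN (3.46% of all genes), 6 in all where 7.48% of all genes tested reached it. DESeq2 called 0 of the 14 F-box genes to which it gave an adjusted p, against 6.99% of the 672 genes with one, and limma-voom called 0 of 66 (0% of all genes). The other 8 F-box genes (Fbxo2, Fbxo4, Fbxo6, Fbxo24, Fbxo27, Fbxo39, Fbxo41 and Fbxo48) had at most 18 counts in any library and were not tested.

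Every clustered gene was estimated slightly higher in SN, without passing the test. The log2 of SN over NSN lay between 0.19 and 0.36 for the 15 clustered genes, with a median of 0.26, against a median of -0.01 over all genes tested, of which 48% lay above 0. Fbxw17, outside the cluster, was at 14.8 and 15.7 CPM in the NSN libraries, against 18.3 and 16.8 CPM in the SN libraries, which did not overlap. Its log2 was 0.20 (SE 0.13), so that all 16 genes numbered Fbxw13 and higher had a positive value (median 0.25). Both SN libraries lay above both NSN libraries for 11 of the 15 clustered genes, where 18.3% of all genes tested did so. The other abundant mRNAs did the same: of the 117 genes above a log2 CPM of 10 that are no F-box genes, 98.3% were higher in SN, with a median log2 of 0.26, and 63.2% did not overlap between the classes in that direction. The 8 clustered genes above that level had a median of 0.27. Between a log2 CPM of 8 and 10, the 5 clustered genes had a median of 0.25 and the 498 genes outside the family 0.12, with 84.1% of those higher in SN.

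The size of the shift depended on the scaling. With library size alone the median of the 16 genes was 0.11, when the median of all genes moved to -0.15, and on log2(TPM + 1) it was 0.08, with all genes at -0.13. All 16 values stayed above 0 in each of these settings, as they did with each library left out, when the median ranged from 0.16 (without NSN replicate 2 or without SN replicate 1) to 0.37 (without NSN replicate 1). In TPM, the log2 ratios of the class means of the 15 clustered genes lay between 0.02 and 0.18.

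Library by library, the clustered genes moved together. Fbxw25 had the smallest unadjusted p of them, with 192 and 186 CPM in NSN replicates 1 and 2 and 254 and 230.2 CPM in SN replicates 1 and 2, so that the classes did not overlap (1.28-fold higher in SN, log2 0.36, SE 0.10, edgeR adjusted p = 0.662). Fbxw13 was at 418 and 348 CPM in the NSN libraries, against 500.4 and 428 CPM in the SN libraries (log2 0.28, SE 0.13, edgeR adjusted p = 0.665). Fbxw21 was at 1677 and 1360 CPM in the NSN libraries, against 2004 and 1771 CPM in the SN libraries (log2 0.31, SE 0.16, edgeR adjusted p = 0.686). In each of these genes SN replicate 1 was the highest library, and in Fbxw13 and Fbxw21 NSN replicate 2 was well below NSN replicate 1. Fbxw27 followed the same order, at 719 and 627 CPM in the NSN libraries, against 863 and 752 CPM in the SN libraries. The most abundant, Fbxw28, was at 5310 and 4655 CPM in the NSN libraries, against 6496 and 5634 CPM in the SN libraries (log2 0.28, SE 0.18), and its close copy Fbxw14 at 4431 and 3688 CPM against 5578 and 4625 CPM (log2 0.33, SE 0.19). Fbxw24 was at 4819 and 4188 CPM in the NSN libraries, against 5444 and 4834 CPM in the SN libraries (log2 0.19, SE 0.18). For these 3 genes the lower SN library stood only slightly above the higher NSN library, and the gap within a class exceeded the gap between these nearest libraries.

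The middle of the cluster gave the same picture. Fbxw18 was at 2671 and 2420 CPM in the NSN libraries, against 3155 and 2738 CPM in the SN libraries, and Fbxw19 at 2287 and 2018 against 2699 and 2452 CPM. Fbxw15 was at 2330 and 1935 CPM in the NSN libraries, against 2849 and 2387 CPM in the SN libraries, and Fbxw16 at 2333 and 2056 against 2758 and 2349 CPM. None of these 4 overlapped between classes, though Fbxw16 did so by a margin of few CPM. The classes overlapped for Fbxw20 (1008 and 829 CPM in NSN, 1188 and 998 CPM in SN) and Fbxw26 (1000 and 885 CPM in NSN, 1167 and 989 CPM in SN). They also overlapped for Fbxw22 (916 and 746 CPM in NSN, 1044 and 902 CPM in SN) and Fbxw23 (175 and 141 CPM in NSN, 189 and 174 CPM in SN). Summed over the cluster, which does not depend on how reads are divided among copies, the level was 30287 and 26082 CPM in the NSN libraries, against 36188 and 31264 CPM in the SN libraries. SN replicate 1 was the highest and NSN replicate 2 the lowest, and the other libraries, NSN replicate 1 and SN replicate 2, lay close together.

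**Figure D4:**
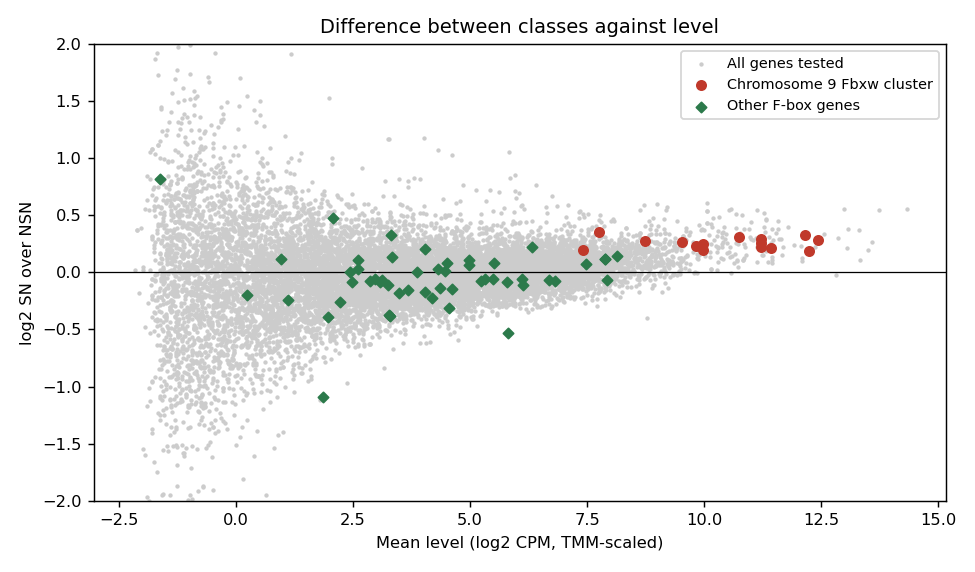
log2 of SN over NSN against mean level (log2 CPM, TMM-scaled) for all genes tested (grey), the 15 clustered Fbxw genes (red circles) and the other tested F-box genes (green diamonds); genes beyond 2 on the vertical axis are not drawn. The cluster lies between 0.19 and 0.36 among the other abundant genes, which also lie above 0, and the other F-box genes scatter around 0.

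Outside the subgroup numbered Fbxw13 and higher, 58 F-box genes had a median of 5.15 TPM. Of these, 50 were tested. Their median log2 was -0.07, and 31 were below 0, where 52% of all genes tested were. With library size alone 46 of the 50 were below 0, with a median of -0.21 against -0.15 for all genes, and on log2(TPM + 1) 45 were, with a median of -0.22 against -0.13. Both NSN libraries lay above both SN libraries for 14 of the 50 and the reverse for 8, where all genes gave 20.7% and 18.3%, and 39% in either direction. For 41 of the 50 the estimated change was under 1.2-fold in either direction.

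The most abundant F-box genes outside the cluster showed small differences between the classes. Fbxw4, whose disruption gives the limb defect dactylaplasia in mice, was at 276 and 257 CPM in the NSN libraries, against 322 and 266 CPM in the SN libraries, and overlapped (log2 0.14, SE 0.12, mean 216 TPM). Fbxl6 was at 175 and 170.4 CPM in the NSN libraries, against 195 and 169 CPM in the SN libraries. Fbxo34 was at 218 and 232 CPM in the NSN libraries, against 252 and 236 CPM in the SN libraries, and Fbxo8, which carries a Sec7 domain like that of activators of Arf GTPases, at 212 and 242 against 243 and 249.8 CPM. Fbxo34 and Fbxo8 were narrowly above NSN in both SN libraries, by a few CPM. Fbxo28 was at 242 and 255 CPM in the NSN libraries, against 236 and 238 CPM in the SN libraries. Fbxo36 was at 21.7 and 22 CPM in the NSN libraries, against 23.7 and 22.7 CPM in the SN libraries, and Fbxo9, which targets the Tel2 and Tti1 regulators of mTOR kinase complexes, at 36.4 and 40.7 against 35.9 and 37.1 CPM. The log2 of these 7 genes lay between -0.08 and 0.14, and the direction of Fbxw4, Fbxl6, Fbxo34, Fbxo8 and Fbxo36 turned with library size alone and on the TPM scales.

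Fbxo33 had the smallest p of any F-box gene. Its protein directs ubiquitination of the cold-shock protein YB-1, a relative of the oocyte mRNA-packaging protein MSY2. It was at 65.2 and 67.8 CPM in NSN replicates 1 and 2 and 42.8 and 49 CPM in SN replicates 1 and 2, so that the classes stood apart by more than the spread within either (1.45-fold higher in NSN, log2 -0.53, SE 0.11, unadjusted p = 0.000268, edgeR adjusted p = 0.38). It did not pass the main test. It was called with library size alone (edgeR adjusted p = 0.0105) and with no filter on low counts (edgeR adjusted p = 0.0208). Over the alternatives that kept every library, its adjusted p ranged from 0.0105 to 0.577 (curated models only, edgeR), and DESeq2 gave it none. Its log2 over all alternatives lay between -0.72 and -0.44, and was -0.63 without SN replicate 2.

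The other genes with the smallest p that stood higher in NSN included Fbxw genes with defined targets. Fbxw8, the F-box partner of the cullin Cul7, was at 25.4 and 26.1 CPM in the NSN libraries, against 20.4 and 20.9 CPM in the SN libraries (log2 -0.32, SE 0.12, edgeR adjusted p = 0.662). Fbxw7, which marks cyclin E, Myc, Notch, Jun and Mcl1 for destruction, was at 11.2 and 10.4 CPM in the NSN libraries, against 8.35 and 8.3 CPM in the SN libraries (log2 -0.37, SE 0.16, edgeR adjusted p = 0.662). Fbxw5, which targets the centriole protein SAS-6, was at 9.15 and 12.8 CPM in the NSN libraries, against 8.26 and 8.6 CPM in the SN libraries (log2 -0.38, SE 0.19). The classes did not overlap for these 3 genes, and none passed the test. The log2 of Fbxw5 was -0.12 without NSN replicate 2 and -0.60 without NSN replicate 1. Fbxl14, which targets the transcription factor Snail, was at 16 and 18.7 CPM in the NSN libraries, against 14.8 and 15.9 CPM in the SN libraries. Fbxo46 was at 17 and 21.9 CPM in the NSN libraries, against 15.3 and 17.9 CPM in the SN libraries, and overlapped; its log2 of -0.23 was -0.03 without NSN replicate 2, -0.40 without NSN replicate 1 and -0.11 without SN replicate 1. Fbxo45, which forms a ligase with Mycbp2 in neurons and was singled out after its values were seen, was at 4 and 5.77 CPM in the NSN libraries, against 1.9 and 2.69 CPM in the SN libraries (log2 -1.09, SE 0.29, edgeR adjusted p = 0.633). Its counts were 133 and 202 in NSN and 63 and 100 in SN. Its edgeR adjusted p was 0.0594 with library size alone and 0.136 with no filter on low counts, and DESeq2 gave it none. Its log2 over the alternatives ranged from -1.36 (without SN replicate 2) to -0.68.

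Fewer genes outside the cluster stood higher in SN. Fbxl17, which removes wrongly paired BTB-domain dimers, was at 75.3 and 71.4 CPM in the NSN libraries, against 84.5 and 86.6 CPM in the SN libraries (log2 0.22, SE 0.09, edgeR adjusted p = 0.662). Fbxo15, a marker of pluripotent stem cells in mice, was at 7.89 and 9.6 CPM in the NSN libraries, against 11 and 10.9 CPM in the SN libraries (log2 0.33, SE 0.17, edgeR adjusted p = 0.703). The classes did not overlap in either gene, and the log2 of Fbxo15 was 0.19 without NSN replicate 1. Of its curated and its predicted transcript model, Fbxl17 kept 99.2% to 99.5% of its counts in the curated one in every library.

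Genes with well-known substrates were present at low to moderate levels. Fbxw11, which encodes a beta-TrCP protein that recognises phosphorylated beta-catenin, Wee1 and Cdc25a, was at 11.8 and 15 CPM in the NSN libraries, against 11.2 and 12.9 CPM in the SN libraries. Its sister gene Btrc, named outside the Fbx scheme, was at 226 and 245 CPM in the NSN libraries, against 235 and 235 CPM in the SN libraries. By length-corrected level, Btrc was at 46.3 to 61 TPM over the libraries, against a mean of 4.33 TPM for Fbxw11. Fbxl5, the iron sensor that directs destruction of the iron regulatory protein IRP2, was at 66 and 75.1 CPM in the NSN libraries, against 66.5 and 69.1 CPM in the SN libraries. Fbxo7, a regulator of mitophagy and of the proteasome, was at 41.1 and 47.9 against 48.1 and 46.2 CPM. Fbxo11, which targets Bcl6, was at 109 and 121 CPM in the NSN libraries, against 112 and 107 CPM in the SN libraries, and Fbxo30, which targets the spindle kinesin Eg5, at 100.2 and 110 against 93 and 108 CPM. The classes overlapped for each of Fbxw11, Fbxl5, Fbxo7, Fbxo11 and Fbxo30.

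Further members with known roles differed in level. Fbxl21 was at 2.05 and 1.57 CPM in the NSN libraries, against 2.02 and 1.91 CPM in the SN libraries, and the classes overlapped. Fbxo38, known for targeting the immune receptor PD-1, was at 46 and 44.9 CPM in the NSN libraries, against 43.9 and 43.3 CPM in the SN libraries. Fbxo31, which targets cyclin D1, was at 15.6 and 13.2 CPM in the NSN libraries, against 15.2 and 13.8 CPM in the SN libraries. Fbxo47, needed for meiosis in male mice, was at 5.45 and 6.12 against 5.79 and 6.69 CPM, and Fbxw2 at 2.11 and 2.43 against 1.84 and 1.99 CPM. None of these passed the test. Others were at or near the floor of 3 counts (0.081 to 0.0929 CPM per library). Fbxo32, the muscle atrophy gene atrogin-1, had between 2.8 and 12.9 counts per library and was tested (log2 0.82, SE 0.82). Fbxo4, Fbxo6 and Fbxo48 had at most 7, 11 and 8 counts in a library, and the glycoprotein-binding Fbxo2 had 1 count in SN replicate 2 and 0 in the other libraries. The 27 F-box genes not named by the rule for named genes had mean levels of up to 23.8 TPM. Of these, 23 were tested, with log2 values from -1.09 to 0.48, 7 above and 16 below 0, and adjusted p of at least 0.633.

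**Figure D5:**
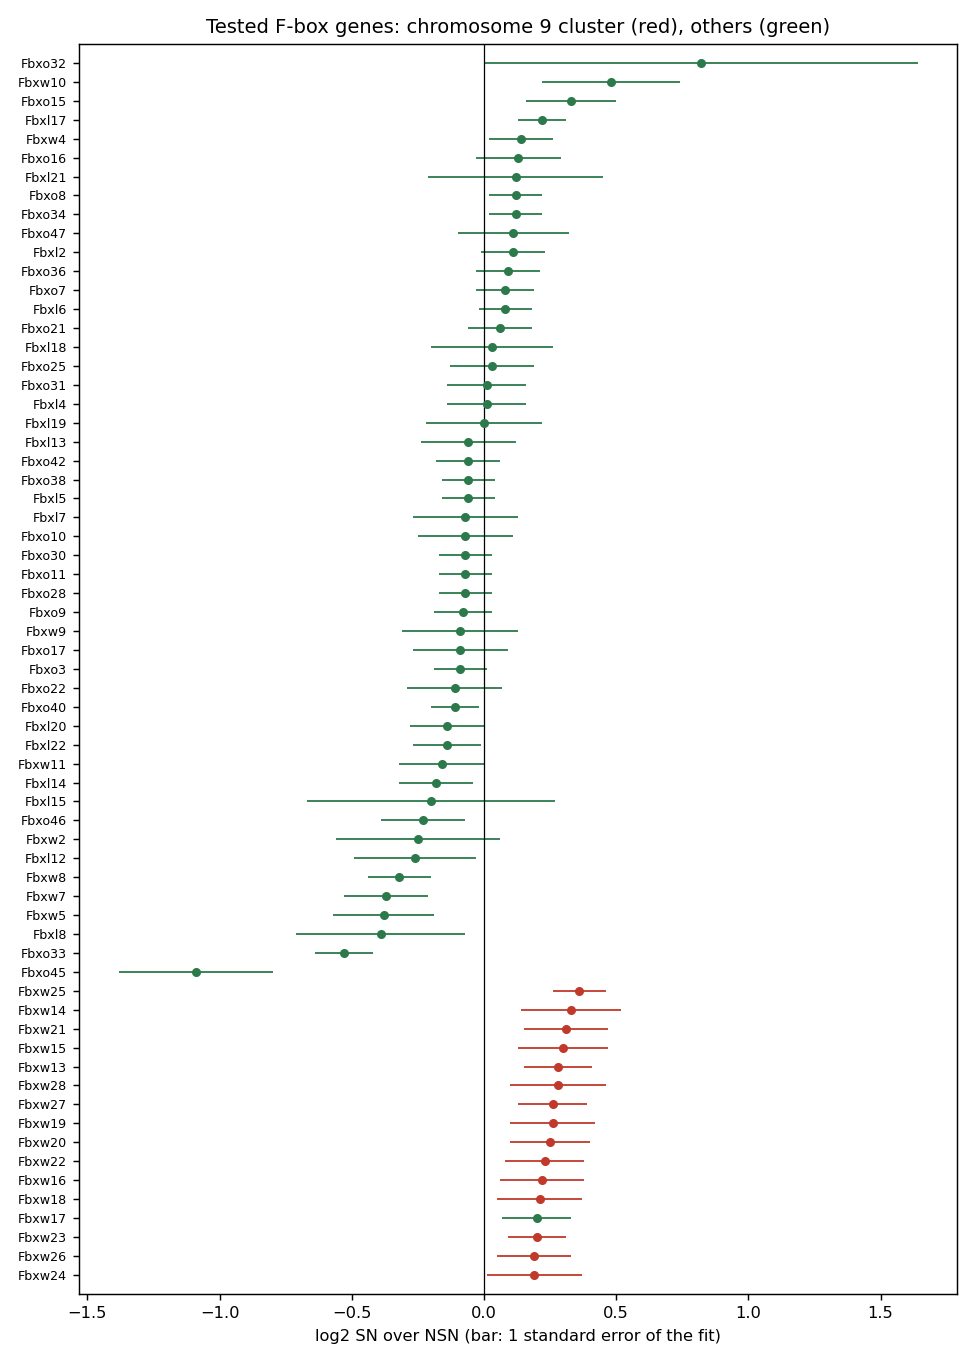
log2 of SN over NSN for 65 of the 66 tested F-box genes, with bars of 1 standard error of the edgeR fit; red marks the chromosome 9 cluster, grouped at the bottom with Fbxw17, and green the others. All 15 clustered genes lie between 0.19 and 0.36, Fbxo33 lies at -0.53 and Fbxo45 at -1.09, and 0 of the 66 passed the test.

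Many F-box genes were spread over several transcript models. Of the 221 models, 116 are curated and 105 predicted, and 46 genes had at least 2 models and 100 counts in every library. In 18 of these 46 a single model held more than 90% of the counts on average, and in 7 the leading model held less than 50%. In the cluster the share of the leading model ranged over the libraries from 98.6% to 99.1% for Fbxw21, from 45.2% to 47.3% for Fbxw14, from 59.6% to 66.1% for Fbxw28, from 51.5% to 61.5% for Fbxw27 and from 66.2% to 76.3% for Fbxw22. The largest movement between libraries was in Fbxw17, whose leading model held 3.4% and 49.7% in NSN and 29.6% and 47.7% in SN, so that libraries of 1 class differed more than the classes. In Fbxo38 the counts of some models were at or near 0 in 1 class. A curated model had 301.71 and 340.83 estimated counts in NSN and 0 in both SN libraries, and a predicted model had 0 and 0.26 in NSN and 533.66 and 214.2 in SN. The sum over the 7 models of the gene differed little between the classes, as given above. In the authors' deposited table the log2 of these 2 models is -10.82 (p = 3e-13) and 10.97 (p = 4.77e-12), values that depend on how a model at 0 is treated. Another predicted model of Fbxo38 moved as far within each class, with 133.33 and 0 estimated counts in NSN and 0 and 316.36 in SN. Over all F-box models, the authors' deposited table gives an unadjusted p under 0.05 for 28 of 220 models with a p, against 8.361% of all models. These shares were not tested here, and a read that fits several models is divided between them by likelihood.

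The partners of the F-box proteins gave no call either. The SCF core had 6 genes tested, with 0 called in either direction and a median log2 of 0.01. Skp1 stood at 7299 and 7186 CPM in the NSN libraries, against 7580 and 6707 CPM in the SN libraries, and Cul1 at 872 and 908 against 915 and 871 CPM. Within this list Cks1b, the cofactor of the F-box protein Skp2, had the smallest p, at 327 and 258 CPM in the NSN libraries, against 398 and 342 CPM in the SN libraries (log2 0.34, SE 0.13, edgeR adjusted p = 0.662), and Cul7 came next at log2 -0.47 (SE 0.64). F-box proteins with other names (Skp2, Btrc, Ccnf, Kdm2a, Kdm2b and Ect2l) had a median of -0.10 with 2 above and 4 below 0 and 0 of 6 called. The histone demethylase genes Kdm2b and Kdm2a had the smallest p of these, both at log2 -0.20 (SE 0.10 and 0.17).

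Genes for neddylation, which activates cullins, for exchange of F-box proteins and for the COP9 signalosome, which reverses neddylation, had a median of 0.07, with 16 of 22 above 0 and 0 called. Cand1, the exchange factor that swaps F-box proteins on Cul1, was at 146 and 155 CPM in the NSN libraries, against 129 and 128 CPM in the SN libraries (log2 -0.23, SE 0.09, edgeR adjusted p = 0.662). Senp8, which processes Nedd8, was at 173 and 172 CPM in the NSN libraries, against 201 and 200.3 CPM in the SN libraries (log2 0.22, SE 0.09, edgeR adjusted p = 0.662). The classes stood apart for both, in opposite directions, and neither passed the test. Enzymes that supply ubiquitin to SCF ligases had a median of 0.03 over 7 genes with 0 called, with Ube2d1 at log2 0.39 (SE 0.17) and Arih1 at -0.08 (SE 0.09). Known substrates had a median of -0.14 over 17 tested genes, 5 above and 12 below 0, with 0 called. Nfkbia, the NF-kappaB inhibitor destroyed through beta-TrCP, was at 72.3 and 60 CPM in the NSN libraries, against 52.1 and 58.5 CPM in the SN libraries (log2 -0.26, SE 0.11), and Ccne1, the cyclin E gene whose protein Fbxw7 recognises, at 5.84 and 7.66 against 5.03 and 4.59 CPM (log2 -0.49, SE 0.22).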

How the data were processed

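Estimated counts, TPM, FPKM, a normalized count signal, log2 fold changes and p-values per transcript model were deposited by the authors for 2 NSN and 2 SN libraries. The submitters' processing notes list RSEM, Bowtie2 and HISAT2, with no version, and mm10. RSEM divides reads that fit several models, so 59.8% of estimated counts were not whole. Estimated counts and TPM were summed per gene ID, and the counts were rounded. FPKM and the normalized signal deposited by the authors were not used in tests. Genes that passed filterByExpr were tested with edgeR 4.0.16 (R 4.3.3, TMM, robust quasi-likelihood, Benjamini-Hochberg, threshold 0.05). On simulated counts this procedure recovered 60.3% of 68 genes changed 1.5-fold, 90.9% of 66 changed 2-fold and 100% of 66 changed 4-fold. It also made 22 false calls there, among 13202 genes tested, a larger share of its calls than the 0.05 threshold aims for. Recovery was not split by expression level, so it cannot be read for weakly expressed genes such as Fbxo45. DESeq2 1.42.0, limma 3.58.1, other scalings, filters, TPM on a log scale, curated models and left-out libraries were alternatives. A floor of 3 counts was used. Upstream sequences came from RefSeq (GRCm38.p6), with the first listed window taken where a gene had several, and transcripts from GENCODE M21. Earlier results of these data were known when the members, lists and naming rule were chosen. Named were all Fbxw13-and-higher genes with a mean of at least 5 CPM, the 10 other F-box genes highest in TPM, the 6 in each direction with the smallest p and at least 5 CPM in the higher class, and those with well-known substrates; of each pathway list, the 2 genes with the smallest p. The values of 1 F-box gene are not reported here; it was kept in all counts and medians over the family.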

Additional observations from a re-analysis of the deposited data

How the results depend on the processing

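Depth did not limit the clustered genes, but genes near the floor of 3 counts were not tested or, as for Fbxo32, had a wide standard error. Also, 2 libraries a class leave little information on spread. Genes called numbered 0 in the main test and with DESeq2 size factors or limma-voom, 15 with library size alone, 15 with no low-count filter, 47 with DESeq2, 47 on log2(TPM + 1), 45 on log2(TPM + 0.1), 1 with curated models only and 44 with the replicate block, and from 2 to 290 with 1 library left out (290 without SN replicate 2); the cause was not tested. F-box genes called numbered 1 with library size alone, 1 with no filter (Fbxo33 in both), 1 with curated models only (Fbxo38, whose curated counts are 0 in SN) and 0 with the replicate block, and 0 to 2 with 1 library left out. The replicate numbers were not stated to pair the libraries; same-numbered deviations correlated at 0.029. The median log2 of the tested F-box genes was -0.12 with library size alone, -0.14 on log2(TPM + 1), -0.15 on log2(TPM + 0.1), 0.05 with curated models and 0.03 to 0.05 with 1 library left out. That of the genes numbered Fbxw13 and higher was 0.08 on both TPM scales and 0.26 with the replicate block, and all 206 of their alternative values stayed above 0. That of all genes was -0.15 with library size alone, -0.13 on log2(TPM + 1) and -0.18 on log2(TPM + 0.1). Of 338 alternative values of the other named genes, 298 kept direction and call, 36 in 14 genes reversed and 4 became called. Where DESeq2 gave a gene no adjusted p, its value was counted by direction alone. With library size alone, log2(TPM + 1) and log2(TPM + 0.1) in that order, Fbxw4 was at -0.008, -0.038 and -0.038, Fbxl6 at -0.073, -0.101 and -0.102, Fbxo34 at -0.031, -0.062 and -0.063, Fbxo8 at -0.025, -0.056 and -0.056, Fbxo36 at -0.06, -0.044 and -0.045, Fbxo7 at -0.064, -0.081 and -0.083 and Fbxo31 at -0.139, -0.141 and -0.167. Fbxl21 was at -0.024 and Fbxo47 at -0.03 with library size alone, and Fbxo47 at -0.001 on log2(TPM + 1). With curated models Fbxo11 was at 0.029. With 1 library left out, Fbxl6 ranged from -0.027 to 0.18, Fbxo11 from -0.143 to 0.004, Fbxo7 from -0.024 to 0.198, Fbxl5 from -0.147 to 0.039, Fbxo9 from -0.156 to 0.005, Fbxw11 from -0.319 to 0.024, Fbxl21 from -0.061 to 0.32, Fbxo30 from -0.174 to 0.04 and Fbxo31 from -0.11 to 0.13.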
